A study of Mus musculus with 16 samples.

Results

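The 8 genes described here encode receptors for glutamate: the AMPA receptor subunits Gria1, Gria2, Gria3 and Gria4, the NMDA receptor subunits Grin2c and Grin3a, and the metabotropic receptors Grm3 and Grm5. They were taken by symbol from an RNA-seq table of 39171 features of mouse astrocytes, and all 8 were present. Levels are in FPKM, fragment counts scaled by transcript length and by the mapped total of the library, which can therefore be set side by side between genes. The 8 genes ranged from 1.18 to 69.5 FPKM, none was listed at 0 in any library, and all 8 passed the filter used for testing, at least 1 FPKM in at least 4 libraries.

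Astrocytes were isolated by FACS from 4 mice at postnatal day 15, and each mouse gave 4 libraries. The groups were spinal cord astrocytes positive for an IL-33 reporter, spinal cord astrocytes negative for it, thalamus positive astrocytes and thalamus negative astrocytes, with n = 4 mice in each. The reporter is an mCherry reporter of the alarmin cytokine gene Il33. All 4 groups, the negative ones included, came from C57BL/6 mice of the genotype IL-33-mCherry (het)/Aldh1l1-GFP+, so every animal was heterozygous for the reporter and carried GFP under Aldh1l1, a gene expressed in most astrocytes. The sources used here do not say where the gate was set or how GFP was used in it. There was no treatment and no animal without the reporters.

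Ionotropic glutamate receptors are ion channels of 4 subunits, whereas metabotropic receptors signal through G proteins. In the AMPA family, a Gria2 subunit whose transcript has been edited at the Q/R site of the pore keeps calcium out of the channel, and receptors without Gria2 let it through. Astrocytes sense synaptic glutamate mainly through Grm5, which acts by Gq and calcium release and is known to be high in young rodent astrocytes, and through Grm3, which acts by Gi and persists in the adult.

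Of the 7 cell type marker lists, the astrocyte list had the highest sum in every library. Within each region, marker sums of oligodendroglia, neurons and ependymal cells were higher in negative than in positive libraries. The summed FPKM of 18 astrocyte markers was 17435 to 19484 in the positive and 12422 to 14516 in the negative spinal cord libraries, and 8621 to 10452 in the positive and 8868 to 12413 in the negative thalamus libraries. Markers of oligodendrocytes, 12 in the list, summed to 158 to 169 FPKM in the positive and 3402 to 3583 FPKM in the negative spinal cord libraries, and to 77.8 to 114 FPKM in the positive and 452 to 956 FPKM in the negative thalamus libraries. The 10 markers of oligodendrocyte precursors summed to 248 to 293 FPKM in the positive and 642 to 803 FPKM in the negative spinal cord libraries, and to 176 to 266 FPKM in the positive and 283 to 420 FPKM in the negative thalamus libraries. For both oligodendroglial lists the sums of positive and negative libraries did not overlap in either region. Most of the precursor sum in positive libraries came from Olig1 and Olig2, which averaged 177 and 56.8 FPKM in spinal cord and 103 and 68.6 FPKM in thalamus. In negative thalamus libraries Olig2 averaged 61.9 FPKM. Of the 10 precursor markers 5 and 6 averaged under 1 FPKM in positive spinal cord and thalamus libraries, against 0 and 1 in negative ones. Neuronal markers, 12 in the list, summed to at most 37.2 FPKM in positive libraries and to between 51.5 and 103 FPKM in negative ones. Only 9 of them were tested singly. Of these 9, 5 were lower in positive thalamus and 2 in positive spinal cord libraries at a limma adjusted p under 0.05, and 0 were higher. Ependymal markers, 10 in the list, stayed at or under 8.34 FPKM in positive libraries and reached 126 to 711 FPKM in negative ones. In positive spinal cord and positive thalamus libraries 7 and 8 of the 12 neuronal markers averaged under 1 FPKM, against 3 and 2 in the negative libraries, and 7 and 9 of the 10 ependymal markers did so, against 0 in both negative groups. Endothelial markers, 10 in the list, summed to 3.37 to 5.78 FPKM in positive and 10.7 to 47.6 FPKM in negative libraries, and the 10 microglial markers to 19.1 to 32.2 FPKM and 21.7 to 42.02 FPKM. None of these markers was at 0 in all 4 libraries of a group except the microglial gene C1qa in negative spinal cord libraries. Il33 itself averaged 27.9 ± 3.49 FPKM in the positive and 24.6 ± 7.93 FPKM in the negative spinal cord libraries, and 27.4 ± 3.41 FPKM in the positive and 18.6 ± 6.01 FPKM in the negative thalamus libraries (SD, n = 4 each), and neither difference passed the test (limma adjusted p = 0.559 and 0.0736). Mitochondrial transcripts made up 43.7% to 49.2% of all FPKM in the positive and 46.7% to 71.8% in the negative spinal cord libraries, and 51.3% to 56.7% in the positive and 56.7% to 73.9% in the negative thalamus libraries. Their part in the results below, and that of the other cell types, was not tested. Sequencing depth is unknown for these values, so no counting interval is given.

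**Figure D1:**
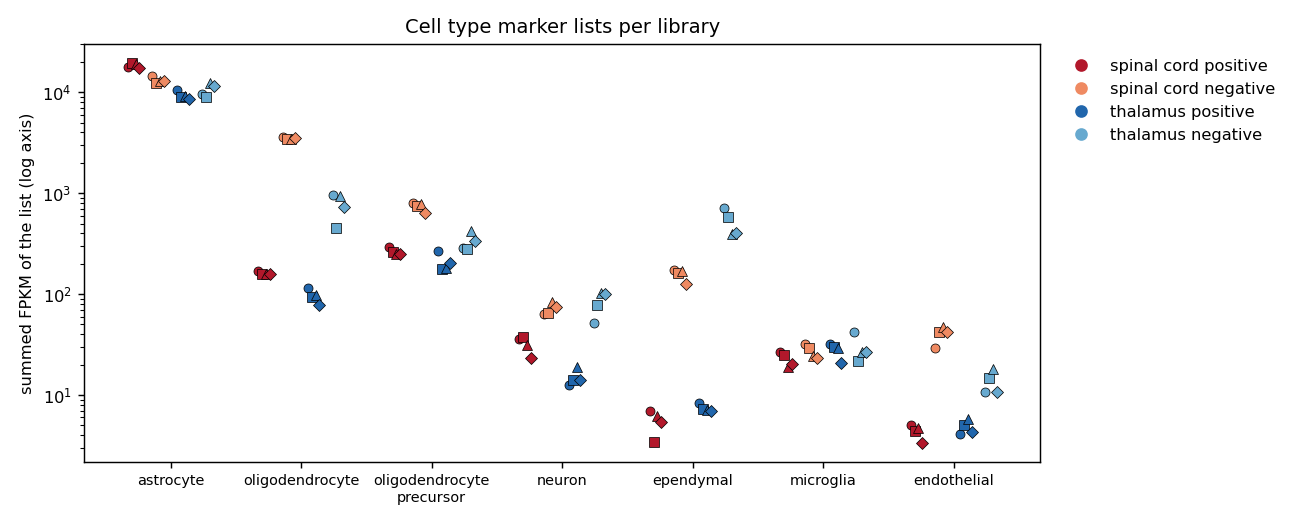
Summed FPKM (log axis) of 7 cell type marker lists in each of the 16 libraries, with colour for the group and symbol shape for the mouse (circle mouse 1, square mouse 2, triangle mouse 3, diamond mouse 4). Oligodendrocyte, ependymal and neuronal sums lie higher in negative than in positive libraries of both regions, while microglial sums overlap between all 4 groups.

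The Gria genes encode channel subunits that differ little around the residue that editing changes. The stretch below is the coding sequence of the pore loop of each subunit gene, shown because the results below turn on the balance of Gria2 against the other subunits, and this is where Gria2 is edited. Sequences are from the GENCODE vM21 transcripts, in the coding direction, and the capitals mark the codon of the Q/R site as the genome has it, before editing.
Gria1: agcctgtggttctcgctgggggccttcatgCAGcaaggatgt
Gria2: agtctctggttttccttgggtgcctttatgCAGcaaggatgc
Gria3: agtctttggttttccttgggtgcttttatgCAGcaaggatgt
Gria4: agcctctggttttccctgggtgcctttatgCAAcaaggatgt
They lie at chr11:57243064-57243105 on the plus strand for Gria1, chr3:80706902-80706943 on the minus strand for Gria2, chrX:41610235-41610276 on the plus strand for Gria3 and chr9:4464128-4464169 on the minus strand for Gria4 (GRCm38), each within 1 exon. The genomic codon was CAG in Gria1, Gria2 and Gria3 and CAA in Gria4, and both codons read glutamine. Over these 42 bases Gria2 and Gria3 shared 39 bases (92.9%), Gria2 and Gria4 shared 38 (90.5%), and Gria1 and Gria2 shared 34 (81.0%). A gene level does not show whether its transcripts were edited, so editing was not measured here.

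In the thalamus, 3 of the 8 genes passed the test between positive and negative astrocytes, where 25.2% of all 16340 tested features did so, and in the spinal cord 6 of 8 did so, against 19.6% of all features. In the thalamus 2 rose and 1 fell, where 11.6% and 13.6% of all features rose and fell, and in the spinal cord 4 rose and 2 fell, where 9.04% and 10.5% did. A gene is called when the Benjamini-Hochberg adjusted p of limma, fitted on log2(FPKM + 1) over all 16 libraries, is under 0.05. These are 37.5% and 75% of the 8 genes, so the thalamus count was nearer to its background than that of the spinal cord. The 8 genes and the gene lists below were chosen with earlier results of these data known. Their counts, here and below, are therefore descriptions, and the shares of all features beside them are no test of enrichment. The 8 genes had a median log2 difference of 0.48 in the thalamus, where all tested features had 0.06. In the spinal cord it was 0.52, where all tested features had 0.09. The 18 astrocyte markers had a median of -0.11 in the thalamus, with 5 called higher and 3 lower. Their median was 0.50 in the spinal cord, near that of the 8 genes, with 9 called higher and 0 lower. What part of the receptor differences goes with this was not tested. In these bulk libraries, fewer cells of a type and less RNA per cell cannot be told apart.

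**Figure D2:**
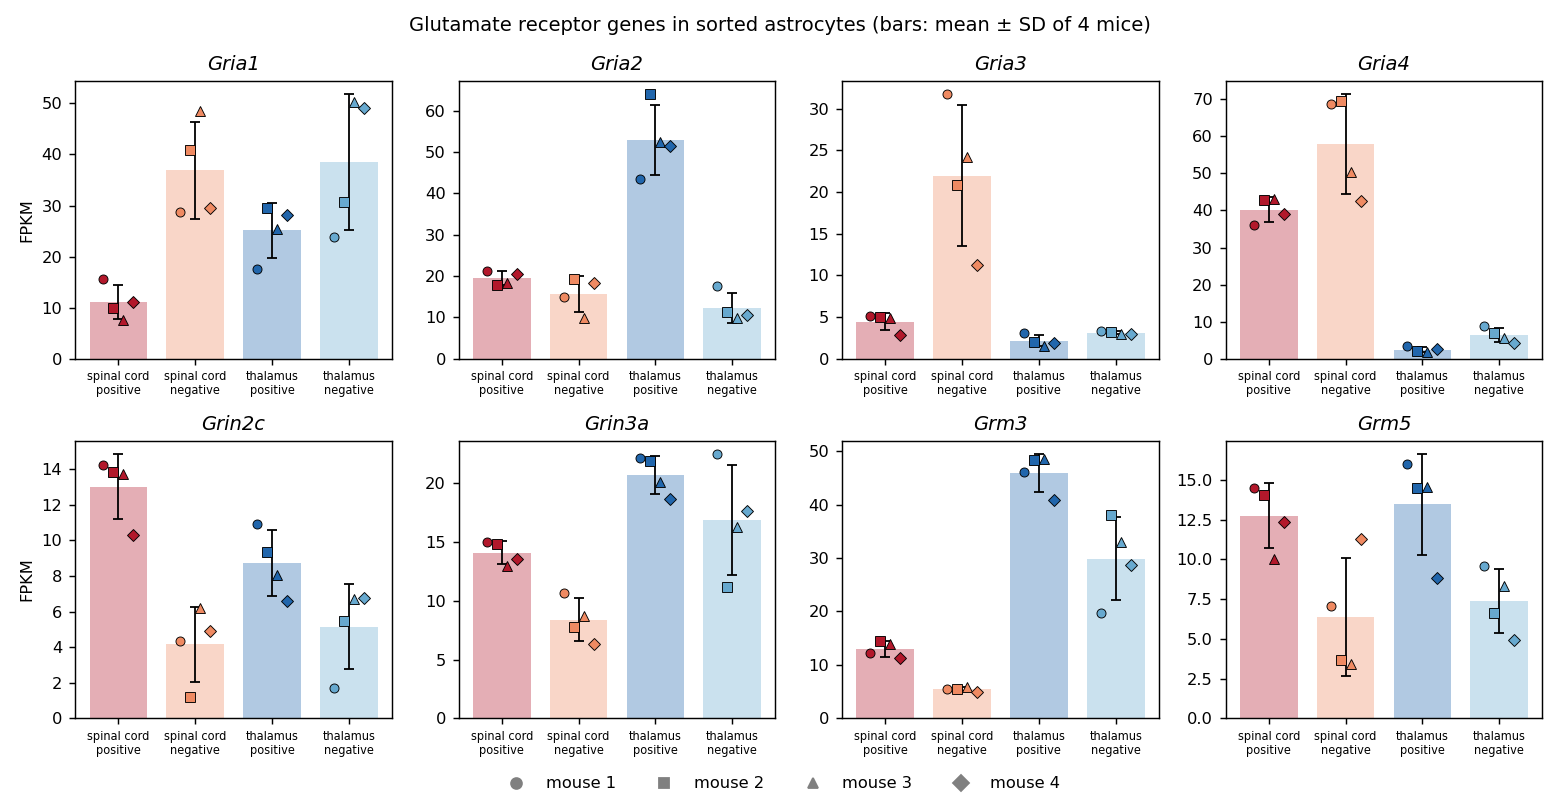
FPKM of the 8 receptor genes in spinal cord positive, spinal cord negative, thalamus positive and thalamus negative astrocytes; points are libraries with 1 symbol per mouse, bars are means and error bars are SD (n = 4). Gria2 stands highest in positive thalamus libraries (43.5 to 64.0 FPKM), Gria4 is high in both spinal cord groups, and Grm3 is highest in positive thalamus libraries.

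Gria2 was the AMPA subunit gene that rose, and it rose in positive thalamus astrocytes. It stood at 43.5, 64.0, 52.3 and 51.6 FPKM in the positive thalamus libraries of mice 1 to 4, in that order here and below, against 17.6, 11.4, 9.80 and 10.5 FPKM in the negative ones. Every positive library was higher than every negative one. The log2 difference was 2.04 ± 0.22 (SE; limma adjusted p = 1.2e-05). In the spinal cord Gria2 was at 21.2, 17.8, 18.4 and 20.6 FPKM in positive libraries, against 15.01, 19.4, 9.86 and 18.4 FPKM in negative ones. Here the groups overlapped and the log2 difference of 0.34 ± 0.22 (SE) did not pass the test (limma adjusted p = 0.301). The positive libraries were higher in 3 of the 4 mice of the spinal cord and in 4 of 4 mice of the thalamus.

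Gria1, which encodes a subunit that many calcium-permeable AMPA receptors contain, fell in positive spinal cord astrocytes. It was at 15.6, 9.98, 7.63 and 11.1 FPKM in the positive spinal cord libraries, against 28.8, 40.8, 48.5 and 29.4 FPKM in the negative ones. The groups did not overlap, and the log2 difference was -1.65 ± 0.28 (SE; limma adjusted p = 6.8e-04). In the thalamus Gria1 was at 17.5, 29.6, 25.4 and 28.2 FPKM in positive libraries, against 23.9, 30.7, 50.3 and 49.2 FPKM in negative ones. All 4 mice had the lower value in the positive library, but the groups overlapped and the log2 difference of -0.55 ± 0.28 (SE) did not pass the test (limma adjusted p = 0.16).

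Gria3, an X-linked subunit gene, was the receptor gene with the steepest fall in the spinal cord. It was at 5.11, 4.98, 4.93 and 2.86 FPKM in positive spinal cord libraries, against 31.7, 20.8, 24.1 and 11.2 FPKM in negative ones. The lowest negative library, that of mouse 4, was still above the highest positive one, and the log2 difference was -2.01 ± 0.27 (SE; limma adjusted p = 9.7e-05). In the thalamus Gria3 was low in both gates, at 3.06, 2.06, 1.53 and 1.88 FPKM in positive libraries, against 3.35, 3.24, 2.95 and 2.98 FPKM in negative ones. That difference of -0.42 ± 0.27 (log2, SE) did not pass the test (limma adjusted p = 0.268). The negative spinal cord group, where Gria3 was high, is also the group with the highest oligodendrocyte and oligodendrocyte precursor sums. Its library with the lowest Gria3 value, mouse 4, had the lowest precursor sum (642 FPKM) but not the lowest oligodendrocyte sum. That sum was 3505 FPKM in mouse 4 and lowest in mouse 3, at 3402 FPKM. For Gria1 the lowest negative spinal cord library, mouse 1 (28.8 FPKM), had the highest precursor sum (803 FPKM). Pdgfra, a defining gene of those precursors, averaged 0.25 ± 0.11 FPKM in the positive and 4.47 ± 3.26 FPKM in the negative spinal cord libraries (SD, n = 4 each). Sox10, of the same list, averaged 0.84 ± 0.44 FPKM in positive and 96.3 ± 15.6 FPKM in negative ones (SD, n = 4 each). Of the 10 listed precursor markers 7 were called lower in positive spinal cord libraries and 0 higher. The part of those precursors in the Gria3 and Gria1 differences was not tested. Mouse 1 was the only female by its Xist level, 175 to 468 FPKM, since mice 2 to 4 had 1.46 FPKM or less. Mouse 1 also had the highest Gria3 value in every group, and its sex cannot be told apart from the animal here. Without mouse 1 the Gria3 difference in the spinal cord was still called, as it was under each of the 21 other settings (adjusted p at most 0.0049).

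Gria4, a subunit with fast channel kinetics that is also found in glia, fell in positive thalamus astrocytes. It was at 3.35, 2.09, 1.70 and 2.50 FPKM in positive thalamus libraries, against 8.75, 7.08, 5.62 and 4.25 FPKM in negative ones. The groups did not overlap, and the log2 difference was -1.11 ± 0.22 (SE; limma adjusted p = 0.0022). In the spinal cord Gria4 was the most abundant of the 8 genes in both gates, at 36.1, 42.7, 43.03 and 39.2 FPKM in positive libraries, against 68.8, 69.5, 50.5 and 42.5 FPKM in negative ones. The positive library was lower in 4 of 4 mice, but the negative library of mouse 4 lay below the highest positive ones, and the log2 difference of -0.49 ± 0.22 (SE) did not pass the test (limma adjusted p = 0.139). After rescaling by astrocyte markers, which moved the median of all features in the spinal cord to -0.41, the difference was -1.14 and was called (limma adjusted p = 0.0032), the one of 21 other settings in which it was.

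The make-up of the AMPA family differed between groups, as the share of each subunit in the summed FPKM of Gria1 to Gria4 shows. The sum itself was 75.3 ± 1.95 FPKM in the positive and 132 ± 21.8 FPKM in the negative spinal cord libraries, and 82.5 ± 12.4 FPKM in the positive and 60.4 ± 8.63 FPKM in the negative thalamus libraries (SD, n = 4 each). Gria2 took 25.9 ± 1.97% of it in the positive and 12.2 ± 4.52% in the negative spinal cord libraries, and 64.0 ± 1.83% in the positive and 21.1 ± 8.43% in the negative thalamus libraries (SD, n = 4 each). In each region every positive library had a higher Gria2 share than every negative one: the positive spinal cord libraries ranged from 23.6% to 27.9% and the negative ones from 7.42% to 18.1%, and in the thalamus the ranges were 61.3% to 65.5% and 14.3% to 32.8%. In the spinal cord the level of Gria2 itself did not pass the test (limma adjusted p = 0.301). There Gria1 and Gria3 were higher in the negative libraries, which also had the higher oligodendroglial marker sums. The part of those cells in the shares was not tested. Gria4 took 53.5 ± 5.27% in the positive and 43.4 ± 4.40% in the negative spinal cord libraries, but 3.04 ± 1.35% and 11.1 ± 4.64% in positive and negative thalamus libraries (SD, n = 4 each). Gria1 led in negative thalamus libraries with 62.5 ± 13.8%, against 30.3 ± 3.15% in positive ones (SD, n = 4 each). Thus the leading subunit transcript was Gria4 in both spinal cord groups, Gria2 in positive thalamus and Gria1 in negative thalamus astrocytes. These shares combine genes chosen together and are given as a description, with no test.

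**Figure D3:**
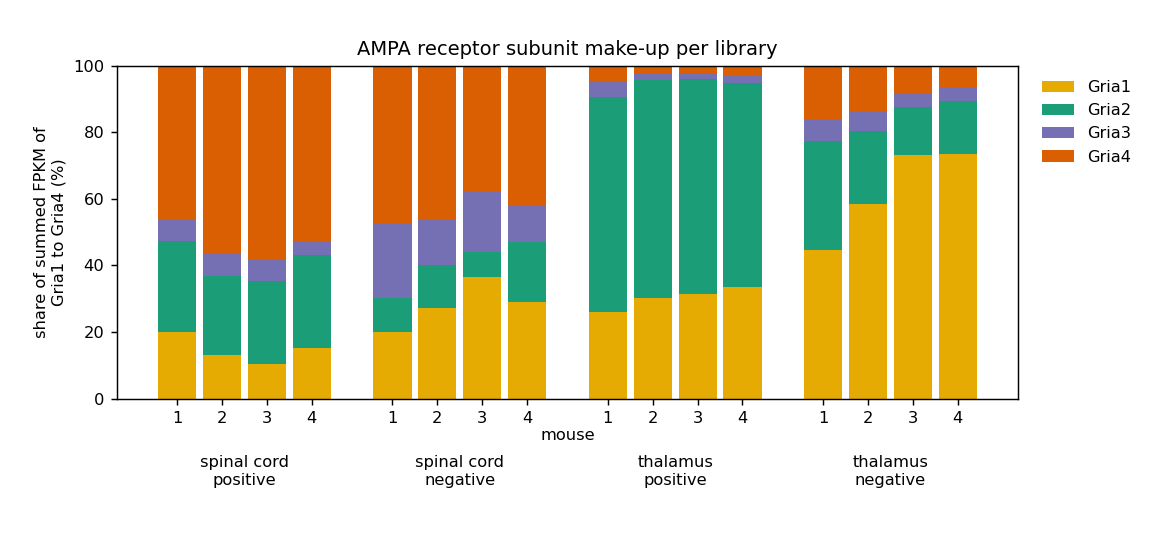
Share of each AMPA subunit gene in the summed FPKM of Gria1 to Gria4 (percent), 1 bar per library, for mice 1 to 4 of the spinal cord positive, spinal cord negative, thalamus positive and thalamus negative groups. Gria2 fills 61.3% to 65.5% of the bar in positive thalamus libraries, and at most 32.8% in the other groups.

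Grin2c encodes an NMDA receptor subunit that gives channels with weak magnesium block, and it rose in positive spinal cord astrocytes. It was at 14.3, 13.8, 13.7 and 10.3 FPKM in positive spinal cord libraries, against 4.34, 1.18, 6.17 and 4.90 FPKM in negative ones. The groups did not overlap, and the log2 difference was 1.56 ± 0.38 (SE; limma adjusted p = 0.0091). Leaving out mouse 2, whose negative library had the lowest value, reduced it to 1.16 and ended the call (limma adjusted p = 0.0738), and rescaling by astrocyte markers reduced it to 0.98 with the call kept. In the thalamus Grin2c was at 10.9, 9.37, 8.03 and 6.60 FPKM in positive libraries, against 1.68, 5.46, 6.69 and 6.78 FPKM in negative ones. The positive library was higher in mice 1, 2 and 3 and slightly lower in mouse 4, and the log2 difference of 0.76 ± 0.38 (SE) did not pass the test (limma adjusted p = 0.154).

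Grin3a, an NMDA receptor subunit of the developing brain that lowers calcium entry through the channel, also rose in positive spinal cord astrocytes. It was at 14.96, 14.8, 12.9 and 13.6 FPKM in positive spinal cord libraries, against 10.7, 7.80, 8.67 and 6.32 FPKM in negative ones. There was no overlap, and the log2 difference was 0.70 ± 0.19 (SE; limma adjusted p = 0.0183). The call held in 14 of 21 other settings; it was lost without mouse 2, 3 or 4 (adjusted p = 0.0597, 0.0892 and 0.133), without the positive library of mouse 1 or 2 or the negative library of mouse 4 (0.0504, 0.0509 and 0.0532), and after rescaling by astrocyte markers (0.789). In the thalamus Grin3a was at 22.2, 21.9, 20.1 and 18.7 FPKM in positive libraries, against 22.5, 11.2, 16.2 and 17.6 FPKM in negative ones. These groups overlapped through the negative library of mouse 1, and the log2 difference of 0.31 ± 0.19 (SE) did not pass the test (limma adjusted p = 0.245). Grin1, the subunit that every NMDA receptor needs, averaged only 0.50 ± 0.36 FPKM in the positive and 1.04 ± 0.75 FPKM in the negative spinal cord libraries, and 0.51 ± 0.27 FPKM in the positive and 0.80 ± 0.46 FPKM in the negative thalamus libraries (SD, n = 4 each); it is named for its role, after its values were seen. The transcripts of Grin2c and Grin3a were thus more abundant per length than those of their obligate partner in all 4 groups.

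Grm3, the Gi-coupled receptor, rose in positive astrocytes of both regions. It was at 12.2, 14.5, 13.9 and 11.2 FPKM in positive spinal cord libraries, against 5.40, 5.58, 5.84 and 4.92 FPKM in negative ones. In the thalamus it was at 46.1, 48.3, 48.5 and 40.8 FPKM in positive libraries, against 19.7, 38.01, 32.9 and 28.7 FPKM in negative ones. In both regions every positive library was above every negative one. The log2 difference was 1.11 ± 0.17 in the spinal cord and 0.64 ± 0.17 in the thalamus (SE; limma adjusted p = 4.0e-04 and 0.0155). The thalamus call was lost without mouse 1, 3 or 4 (adjusted p = 0.0663, 0.0806 and 0.0689) and when the thalamus groups were fitted alone (0.069), while the spinal cord call held in all 21 other settings. The spinal cord difference was 0.51 after rescaling by astrocyte markers (limma adjusted p = 0.0346) and lay between 1.06 and 1.24 in the other fitted settings.

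Grm5, the Gq-coupled receptor, rose in positive spinal cord astrocytes with a wider spread. It was at 14.5, 14.1, 10.0 and 12.4 FPKM in positive spinal cord libraries, against 7.10, 3.68, 3.43 and 11.3 FPKM in negative ones. The positive library was higher in 4 of 4 mice, but the negative library of mouse 4 overlapped the positive group. The log2 difference was 1.02 ± 0.31 (SE; limma adjusted p = 0.0316), while an exact permutation test, two-sided, on the mean FPKM gave p = 0.0571. Its call held in 10 of 21 other settings: it was lost without mouse 1, 2 or 3 (adjusted p = 0.0937, 0.206 and 0.141), without the positive library of mouse 1, 2 or 4 (0.081, 0.0788 and 0.0665) or the negative library of mouse 2 or 3 (0.086 and 0.0902), with the spinal cord groups fitted alone (0.0692), without a filter (0.0506) and after rescaling by astrocyte markers (0.366). In the thalamus Grm5 was at 16.0, 14.5, 14.6 and 8.82 FPKM in positive libraries, against 9.58, 6.65, 8.33 and 4.93 FPKM in negative ones. Again 4 of 4 mice had the higher value in the positive library, and the log2 difference of 0.79 ± 0.31 (SE) did not pass the test (limma adjusted p = 0.0736).

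The balance of the metabotropic pair depended on the region more than on the gate. Grm5 took 49.4 ± 5.49% of the summed FPKM of Grm3 and Grm5 in the positive and 50.8 ± 15.3% in the negative spinal cord libraries, and 22.4 ± 3.35% in the positive and 20.6 ± 8.48% in the negative thalamus libraries (SD, n = 4 each). This share is a description, with no test.

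**Figure D4:**
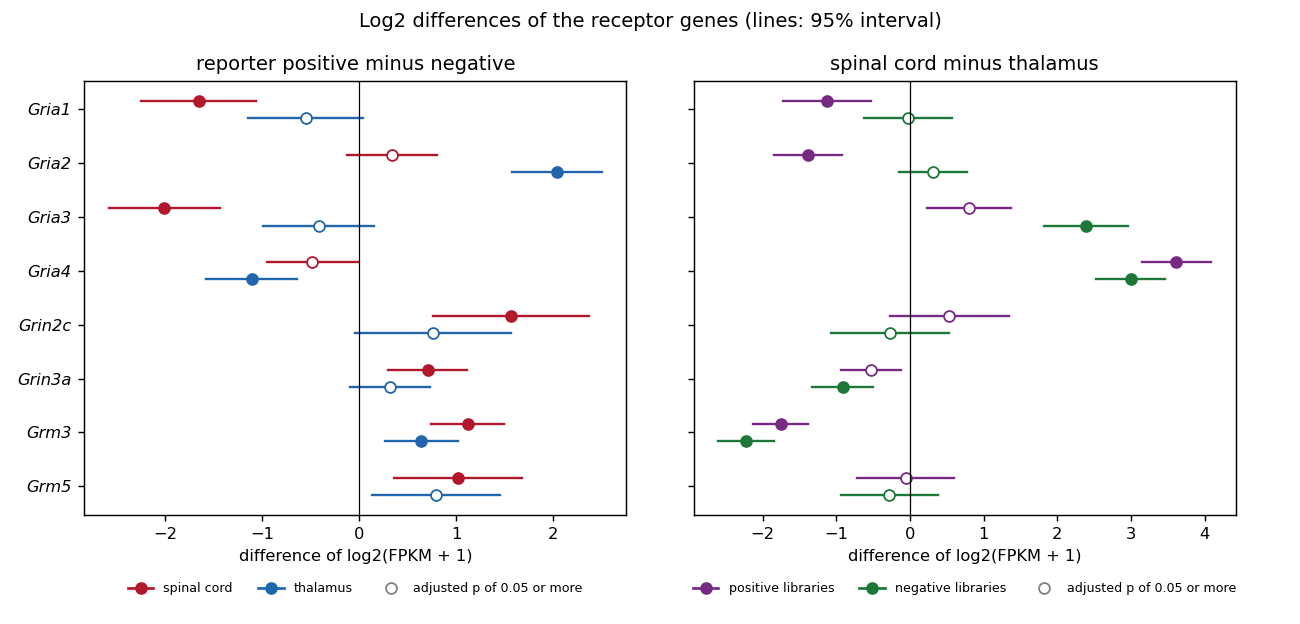
Differences of log2(FPKM + 1) of the 8 genes with 95% intervals from limma; left, positive minus negative in spinal cord (red) and thalamus (blue), and right, spinal cord minus thalamus in positive (purple) and negative (green) libraries, with filled points for an adjusted p under 0.05. The widest distance between the regions' gate differences is that of Gria2 (0.34 in the spinal cord and 2.04 in the thalamus), and the farthest point on the right is Gria4 in positive libraries (3.62).

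Whether the gate difference itself differed between the regions was tested as an interaction, spinal cord minus thalamus, and 2 of the 8 genes were called, against 2.56% of all features. Both were negative, as were 1.43% of all features, and 0 were positive, against 1.13%. For Gria2 the gates differed by 0.34 (log2) in spinal cord and by 2.04 in thalamus astrocytes, and their difference was -1.70 ± 0.31 (SE; limma adjusted p = 0.0077). It was called in 26 of 28 other settings and lost without mouse 2 or mouse 4 (adjusted p = 0.121 and 0.111). For Gria3 they differed by -2.01 and -0.42, and their difference was -1.59 ± 0.38 (SE; limma adjusted p = 0.0388). That call held in only 9 of 28 other settings. It was lost without mouse 1, 2 or 3, without any 1 library other than the negative spinal cord library of mouse 4 and the negative thalamus library of mouse 1, with a pseudocount of 0.1 and without a filter, at adjusted p from 0.0509 to 0.203. For the other 6 genes the interaction did not pass the test, with 95% intervals of -1.94 to -0.26 for Gria1, -0.04 to 1.29 for Gria4, -0.33 to 1.94 for Grin2c, -0.19 to 0.97 for Grin3a, -0.05 to 1.00 for Grm3 and -0.71 to 1.16 for Grm5. The interval of Gria1 leaves out 0, but its adjusted p was 0.188; after rescaling by astrocyte markers its interaction was -1.69 and was called (limma adjusted p = 0.0198), where the median of all features was -0.46.

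Between the regions, 4 of the 8 genes were called in positive astrocytes, against 6.1% of all features, and 4 of 8 in negative astrocytes, against 9.81%. Higher in the spinal cord were 1 gene in positive astrocytes, against 4.22% of all features, and 2 in negative ones, against 5.27%, and lower were 3 genes, against 1.88%, and 2 genes, against 4.54%. Gria4 was higher in the spinal cord in both gates. In positive astrocytes it averaged 40.2 ± 3.28 FPKM in the spinal cord and 2.41 ± 0.71 FPKM in the thalamus, and in negative astrocytes 57.8 ± 13.5 FPKM and 6.43 ± 1.93 FPKM (SD, n = 4 each). These are log2 differences of 3.62 ± 0.22 and 2.99 ± 0.22 (SE; limma adjusted p = 1.1e-07 and 6.1e-07), with no overlap between the regions.

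Grm3 ran the other way in both gates. In positive astrocytes it averaged 12.98 ± 1.53 FPKM in the spinal cord and 45.9 ± 3.55 FPKM in the thalamus, and in negative astrocytes 5.44 ± 0.39 FPKM and 29.8 ± 7.76 FPKM (SD, n = 4 each). The log2 differences were -1.75 ± 0.17 and -2.22 ± 0.17 (SE; limma adjusted p = 1.9e-05 and 1.3e-06). The remaining regional calls were each made in a single gate, and whether the gates differ in them is what the interaction above tests. In positive astrocytes Gria2 was lower in the spinal cord by a log2 difference of -1.38 ± 0.22 (SE; limma adjusted p = 0.0011), and its 4 positive spinal cord values, 17.8 to 21.2 FPKM, lay below the 4 thalamus values, 43.5 to 64.0 FPKM. Gria1 was also lower there, by -1.13 ± 0.28 (SE; limma adjusted p = 0.0251), at 7.63 to 15.6 FPKM in the spinal cord against 17.5 to 29.6 FPKM in the thalamus. That call was lost without mouse 2, 3 or 4 (adjusted p = 0.207, 0.181 and 0.159) and without either positive library of any of those mice (0.0565 to 0.094). In negative astrocytes Gria3 was higher in the spinal cord by 2.39 ± 0.27 (SE; limma adjusted p = 3.7e-05), at 11.2 to 31.7 FPKM against 2.95 to 3.35 FPKM in the thalamus. Grin3a was lower there by -0.91 ± 0.19 (SE; limma adjusted p = 0.0065), at 6.32 to 10.7 FPKM in the spinal cord against 11.2 to 22.5 FPKM in the thalamus, and that call was lost without mouse 3 or 4 (adjusted p = 0.0598 and 0.0913) or with the negative groups fitted alone (0.155). In positive astrocytes Grin3a was also lower in the spinal cord in 4 of 4 mice, at 12.9 to 14.96 FPKM against 18.7 to 22.2 FPKM in the thalamus, with no overlap. That difference of -0.52 ± 0.19 (log2, SE) did not pass the test (limma adjusted p = 0.144), but it was called with the positive groups fitted alone (0.0047) and after rescaling by astrocyte markers (-1.03; 0.0072), and an exact permutation test, two-sided, on the mean FPKM gave an unadjusted p = 0.0286. Gria3 in positive astrocytes was higher in the spinal cord in 4 of 4 mice, at 2.86 to 5.11 FPKM against 1.53 to 3.06 FPKM in the thalamus. The groups overlapped and the log2 difference of 0.80 ± 0.27 (SE) did not pass the test (limma adjusted p = 0.104), though it did with the positive groups fitted alone (0.0241).

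For Grm5 the regional differences missed the test, with a 95% interval of -0.72 to 0.60 in positive and of -0.94 to 0.38 in negative astrocytes (log2). For Grin2c the intervals were -0.27 to 1.34 and -1.07 to 0.54, and the first of these differences was called with the positive groups fitted alone (limma adjusted p = 0.0474). The comparisons share libraries: each region's gate difference and each gate's regional difference use the same 4 groups, so they are not independent of each other.

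Ranked by mean level, the order of the groups differed from gene to gene. Grm3 was the gene in which all 4 groups were apart without overlap, in the order thalamus positive, thalamus negative, spinal cord positive and spinal cord negative. Gria2 had thalamus positive libraries above the other 3 groups, which overlapped in turn. Gria4 had both spinal cord groups, which overlapped, above thalamus negative and then thalamus positive libraries, both separate. Grin2c was the gene whose neighbours all overlapped, from spinal cord positive through thalamus positive and thalamus negative to spinal cord negative libraries. Within a group, Gria4 ranked first in both spinal cord groups, Gria2 in the positive and Gria1 in the negative thalamus libraries, while Gria3 ranked last in 3 of the 4 groups and Grin2c last in negative spinal cord libraries.

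The promoters of 3 genes are shown, the 3 that were called in the thalamus: Gria2 and Grm3, which were higher in positive than in negative thalamus astrocytes and lower in positive spinal cord than in positive thalamus astrocytes, and Gria4, which moved the opposite way in both comparisons. Promoters, 250 bases before to 50 after the annotated start, were matched for 4 of the 8 genes. Sequences are from RefSeq (GRCm38.p6), 5′ to 3′ on the strand of the gene, and capitals mark matches to the GC box GGGCGG on either strand.
Gria2: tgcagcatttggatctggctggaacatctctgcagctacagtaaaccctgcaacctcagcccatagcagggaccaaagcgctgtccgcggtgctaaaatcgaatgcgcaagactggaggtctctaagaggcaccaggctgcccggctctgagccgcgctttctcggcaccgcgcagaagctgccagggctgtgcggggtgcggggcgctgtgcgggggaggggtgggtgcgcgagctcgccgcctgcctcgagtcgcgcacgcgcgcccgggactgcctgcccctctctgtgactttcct
Grm3: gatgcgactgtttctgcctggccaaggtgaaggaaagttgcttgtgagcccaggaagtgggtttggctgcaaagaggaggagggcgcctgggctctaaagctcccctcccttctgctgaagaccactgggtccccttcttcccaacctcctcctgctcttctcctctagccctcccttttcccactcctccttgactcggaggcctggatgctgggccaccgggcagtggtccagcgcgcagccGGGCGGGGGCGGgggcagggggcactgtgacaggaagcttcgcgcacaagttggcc
Gria4: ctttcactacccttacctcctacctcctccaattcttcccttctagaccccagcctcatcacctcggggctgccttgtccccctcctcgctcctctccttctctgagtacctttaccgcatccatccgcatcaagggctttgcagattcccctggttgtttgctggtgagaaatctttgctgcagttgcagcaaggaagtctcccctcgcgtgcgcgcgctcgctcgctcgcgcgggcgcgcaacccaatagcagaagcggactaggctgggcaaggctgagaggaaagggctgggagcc
They span chr3:80802786-80803085 for Gria2, chr5:9725303-9725602 for Grm3 and chr9:4796185-4796484 for Gria4, all on the minus strand. GC boxes (GGGCGG or its reverse complement CCGCCC), which the factor Sp1 is known to bind, numbered 0 in Gria2, 2 in Grm3 and 0 in Gria4, and 35.7% of all 32851 promoters of this length held at least 1. Neither the NFI half-site TTGGCA nor the SOX core AACAAT, letters of factor families active in glia, occurred on either strand of the 3 promoters, where 14.1% and 10.7% of all promoters held them, and no match of one motif overlapped a match of another. CG dinucleotides numbered 26 in Gria2, 11 in Grm3 and 17 in Gria4, above the median of 7 over all promoters. These counts describe the letters of the windows and were not tied to the expression differences by any test.

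Genes whose pattern across the 16 libraries was most like that of a receptor gene were found by the root mean square difference of centred log2(FPKM + 1), over 11095 genes. For Grm3 they were Lrtm2 (0.36), Slc1a3 (0.39), which encodes an astrocyte glutamate transporter, and Fzd10 (0.40), a Wnt receptor. Slc1a3 averaged 211 ± 21.7 FPKM in the positive and 163 ± 11.2 FPKM in the negative spinal cord libraries, and 624 ± 61.7 FPKM in the positive and 459 ± 137 FPKM in the negative thalamus libraries (SD, n = 4 each). For Gria4 they were the homeobox gene Nkx6-1 (0.47), the axon guidance receptor Robo2 (0.48) and Calcrl (0.53), a receptor of calcitonin-related peptides. Gria2 was nearest to Csmd3 (0.31), Sycp2 (0.38) and Cep85l (0.38), and Gria1 to Tdrp (0.36), Kcna6 (0.36) and Myo5a (0.39). Gria3 was nearest to Col23a1 (0.41), Tmem2 (0.46) and Klhl4 (0.46), Grin2c to Tmem198b (0.21), Sdf2 (0.28) and Tmem101 (0.31), Grin3a to Nrp1 (0.16), Golgb1 (0.20) and Trps1 (0.21), and Grm5 to Senp1 (0.27), Slc9a8 (0.31) and Zfp930 (0.31). Among the 8 genes themselves the closest were Grin3a and Grm5, at 0.55, and each of the 8 was nearer to genes outside the family. With 11095 genes compared and only 8 members, a nearer gene outside was likely for each, so nothing about the family is drawn from it. The libraries of a mouse share an animal, and these distances are descriptions with no test.

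Among the other receptor subunit genes, no larger share was called in the thalamus than among all features, and about the same share in the spinal cord. Of 17 other receptor subunit genes 10 were tested, and 1 rose and 1 fell in positive thalamus astrocytes, while 0 rose and 2 fell in positive spinal cord astrocytes. Of all features 11.6% rose and 13.6% fell in the thalamus, and 9.04% rose and 10.5% fell in the spinal cord. Those tested had a median log2 difference of -0.20 in the thalamus, and of -0.44 in the spinal cord, where all features had 0.06 and 0.09. Grik2, a kainate receptor subunit, averaged 12.4 ± 1.06 FPKM in the positive and 7.77 ± 2.72 FPKM in the negative thalamus libraries, but 7.18 ± 0.90 FPKM in the positive and 13.5 ± 2.89 FPKM in the negative spinal cord libraries (SD, n = 4 each). It rose in the thalamus by 0.67 ± 0.24 and fell in the spinal cord by 0.81 ± 0.24 on the log2 scale (SE; limma adjusted p = 0.0484 and 0.0261), and the interaction was called too (-1.48 ± 0.33; adjusted p = 0.0285). Grik3, another kainate subunit, fell in the spinal cord to 0.44 ± 0.07 FPKM in positive libraries, against 3.28 ± 1.40 FPKM in negative ones (SD, n = 4 each; limma adjusted p = 3.5e-04).

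Auxiliary subunits, which control the surface level and gating of the channels, were called lower more often than higher. Of 16 listed 12 were tested, and 0 rose and 4 fell in positive thalamus astrocytes, while 1 rose and 5 fell in positive spinal cord astrocytes, against 11.6% higher and 13.6% lower of all features in the thalamus and 9.04% higher and 10.5% lower in the spinal cord. Their median log2 difference was -0.71 in the thalamus and that in the spinal cord -0.38, where all features had 0.06 and 0.09. Cacng7, which encodes an AMPA receptor regulatory protein, fell in the thalamus to 26.4 ± 7.32 FPKM in positive libraries, against 64.9 ± 13.03 FPKM in negative ones (SD, n = 4 each; limma adjusted p = 0.0016). Gsg1l, an AMPA receptor auxiliary subunit, fell there to 5.23 ± 0.70 FPKM, against 12.8 ± 3.79 FPKM (limma adjusted p = 0.0317). In the spinal cord Neto1, a kainate receptor auxiliary subunit, averaged 0.14 ± 0.07 FPKM in the positive and 4.61 ± 2.18 FPKM in the negative libraries (limma adjusted p = 1.5e-05), and Shisa7 averaged 0.14 ± 0.08 FPKM in the positive and 3.93 ± 2.62 FPKM in the negative ones (limma adjusted p = 0.0012; SD, n = 4 each). Shisa9, an AMPA receptor auxiliary subunit, was the member that rose, with 57.8 ± 5.59 FPKM in the positive and 35.5 ± 6.43 FPKM in the negative spinal cord libraries (SD, n = 4 each; limma adjusted p = 0.0228).

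Scaffold and trafficking genes were called in both directions. Of 14 listed 13 were tested; 2 rose and 2 fell in positive thalamus astrocytes, and 3 rose and 1 fell in positive spinal cord astrocytes, where 25.2% and 19.6% of all features were called in either direction. Dlg3, a membrane-associated scaffold of ionotropic receptors, rose in both regions, with 10.9 ± 4.14 FPKM in the positive and 1.88 ± 0.81 FPKM in the negative spinal cord libraries, and 10.0 ± 2.84 FPKM in the positive and 3.03 ± 1.07 FPKM in the negative thalamus libraries (SD, n = 4 each; limma adjusted p = 3.5e-04 and 0.0036). Dlg4, of the same family, rose in the spinal cord with 93.0 ± 11.0 FPKM in the positive and 47.9 ± 6.01 FPKM in the negative libraries, and Dlg1 rose in the thalamus with 34.03 ± 3.63 FPKM in the positive and 23.5 ± 4.87 FPKM in the negative ones (SD, n = 4 each; limma adjusted p = 0.0251 and 0.0224). Homer proteins tie group I metabotropic receptors to calcium stores. Homer1 fell in the spinal cord to 6.88 ± 0.66 FPKM in positive libraries, against 12.4 ± 4.39 FPKM in negative ones, and Homer2 fell in the thalamus to 2.38 ± 0.41 FPKM, against 4.52 ± 0.87 FPKM (SD, n = 4 each; limma adjusted p = 0.0269 and 0.044). Shank2, which binds Homer, fell in the thalamus to 4.29 ± 0.30 FPKM in positive libraries, against 15.3 ± 7.03 FPKM in negative ones (SD, n = 4 each; limma adjusted p = 6.2e-04).

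Downstream of the metabotropic receptors, 14 of 16 listed Gq and Gi signalling genes were tested. In positive thalamus astrocytes 2 rose and 5 fell, and in positive spinal cord astrocytes 1 rose and 3 fell. Of all features 11.6% rose and 13.6% fell in the thalamus, and 9.04% rose and 10.5% fell in the spinal cord, so the spinal cord count was nearer to its background. Plcb4, a phospholipase C that Gq activates, rose in both regions, with 62.2 ± 4.50 FPKM in the positive and 34.9 ± 10.0 FPKM in the negative spinal cord libraries, and 97.2 ± 6.02 FPKM in the positive and 48.9 ± 16.9 FPKM in the negative thalamus libraries (SD, n = 4 each; limma adjusted p = 0.0165 and 0.0047). Itpr2, the main calcium release channel of astrocytes, rose in the thalamus with 49.7 ± 5.47 FPKM in the positive and 33.3 ± 6.87 FPKM in the negative libraries (SD, n = 4 each; limma adjusted p = 0.026). Gnai1, an inhibitory G protein subunit, fell in both regions, to 2.60 ± 0.60 FPKM in positive spinal cord libraries, against 20.7 ± 5.47 FPKM in negative ones, and to 2.54 ± 0.74 FPKM in positive thalamus libraries, against 11.6 ± 1.84 FPKM in negative ones (SD, n = 4 each; limma adjusted p = 1.2e-06 and 3.4e-05). Gnao1, the G protein subunit most abundant in brain, fell in both regions as well, by 1.54 ± 0.38 and 1.57 ± 0.38 on the log2 scale in spinal cord and thalamus (SE; limma adjusted p = 0.0114 and 0.0084). Gnao1 is the one listed pathway gene in the authors' deposited table of 444 features, which gives it a log2 fold change of -1.11 with an adjusted p of 5.0e-08, and 0 of the 8 receptor genes are in that table. Its highest adjusted p is 0.00976, so it lists only features at or under that value. It compares positive with negative libraries without a split by region, so it is not like for like with the regional values above.

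**Figure D5:**
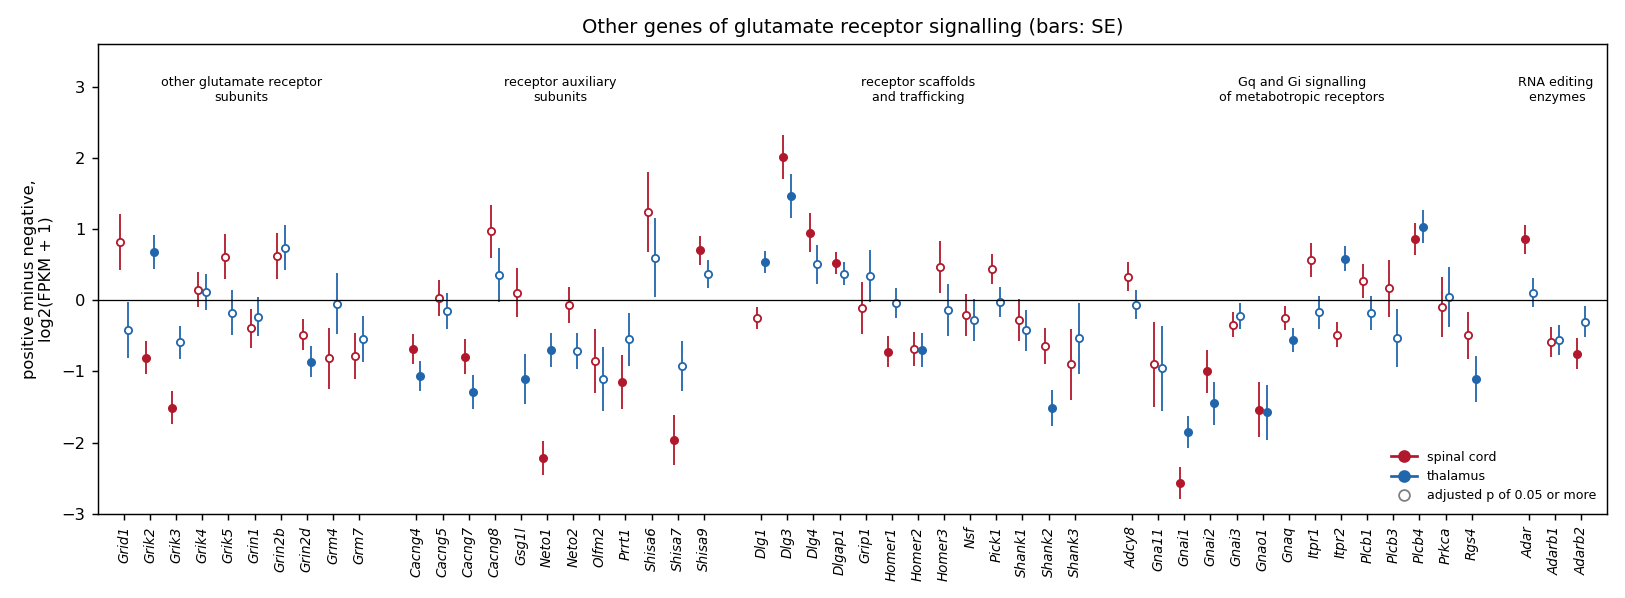
Difference of log2(FPKM + 1), positive minus negative, of each tested gene of 5 pathway lists in spinal cord (red) and thalamus (blue); bars are SE and filled points have an adjusted p under 0.05. Dlg3 and Plcb4 lie above 0 in both regions, Gnai1 and Gnao1 below 0 in both, and Grik2 above 0 in the thalamus and below it in the spinal cord.

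Of the 3 enzymes of the adenosine editing family, 1 rose and 1 fell in positive spinal cord astrocytes and none passed the test in the thalamus, where 19.6% and 25.2% of all features were called. Adar rose to 2.61 ± 0.59 FPKM in positive spinal cord libraries, against 1.00 ± 0.34 FPKM in negative ones, and Adarb2, whose protein has no known editing activity, fell to 0.88 ± 0.21 FPKM, against 2.14 ± 0.12 FPKM (SD, n = 4 each; limma adjusted p = 0.0086 and 0.0242). Adarb1, which edits the Gria2 codon shown in capitals above, averaged 0.94 ± 0.23 FPKM in the positive and 1.95 ± 0.76 FPKM in the negative spinal cord libraries, and 1.76 ± 0.45 FPKM in the positive and 3.07 ± 0.75 FPKM in the negative thalamus libraries (SD, n = 4 each), and passed the test in neither region; it is named after its values were seen.

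Small predicted miRNA genes overlap exons of 4 of the receptor genes, by 111 bases in Gria2, 85 in Gria3 and 19 in Gria4 on the same strand and by 91 in Grin2c on the opposite strand. Whether the counting used strand is not given, so reads in those bases cannot be told apart. The miRNA gene in Gria3 (Gm22413) was listed at 0 in all 16 libraries. The one in Gria2 (Gm25749) ranged from 202 to 431 FPKM in positive and from 66.9 to 250.03 FPKM in negative spinal cord libraries. In the thalamus it ranged from 627 to 846 FPKM in positive libraries and from 14.5 to 1023 FPKM in negative ones. Its mean was highest in the positive thalamus group, as that of Gria2 was, and its part in the Gria2 values was not tested. The one in Gria4 (Gm23811) ranged from 54.6 to 231 FPKM in positive and from 0 to 103 FPKM in negative spinal cord libraries, and in the thalamus from 0 to 69.0 FPKM in positive libraries, while the negative ones were listed at 0. The one in Grin2c (Gm25837) lay between 0 and 85.5 FPKM, with 0 among the libraries of every group. The levels of Gria2, Gria4 and Grin2c are uncertain to the extent of the shared bases.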

How the data were processed

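RNA was measured in 16 libraries of astrocytes, 4 in each of the 4 groups of FACS-isolated cells. Per the labels' protocols, RNA was extracted with the Qiagen RNeasy plus micro kit and libraries were made with NuGEN RNA-Seq V2. Per the submitters' processing notes, the tools were TopHat2 2.0.11, Bowtie2 2.2.3, Cufflinks, Cuffnorm, HTSeq 0.6.1p1, DESeq2 and FastQC, with no role or order stated, and the genome build was GRCm38. The authors deposited FPKM values per gene and library, and the sources used here do not say how they were normalized between libraries. The authors' deposited comparison table gives group means in FPKM, log2 fold changes of positive against negative libraries with their standard errors and adjusted p-values, made with a tool whose version is not given.

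From the FPKM values, limma 3.58.1 in R 4.3.3 was fitted on log2(FPKM + 1) with 1 coefficient per group and a trended prior, over the 16340 features that reached 1 FPKM in 4 or more libraries. A log2 difference on this scale understates the change of low genes. P-values were adjusted by Benjamini-Hochberg over all of these features in each of 5 comparisons, and calls have an adjusted p under 0.05. The fit was tested on simulated data. Alternatives were pseudocounts of 0.1 and 0.5, no filter, a filter of 5 FPKM, median-of-ratios rescaling, rescaling by 18 astrocyte markers, the mouse as a replicate block, the compared groups alone, an untrended prior, leaving out each mouse or library, and exact permutation tests. The mouse numbers pair libraries because, per the labels, a number stands for 1 animal. Deviations from the group means correlated at 0.0358 on average over 24 same-mouse pairs, from -0.0135 to 0.0919, and at -0.0119 over 72 other pairs.

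The receptor genes, pathway lists and marker lists were chosen with earlier results of these data known. Pathway genes are named by a rule: of each list and each positive against negative comparison, up to 2 genes called in each direction with the largest change and at least 2 FPKM in the higher group; Grin1 and Adarb1 were added for their roles. One receptor subunit gene is not reported here and was left out of its list. Like patterns name the 3 nearest genes. Library sums of FPKM lay between 984986 and 2344483. All 8 receptor genes matched by symbol, and 3 listed genes matched by identifier through the reference names.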

Additional observations from a re-analysis of the deposited data

Results flagged for a closer look

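In positive spinal cord astrocytes the library of mouse 4 stood apart from the other 3 for Gria3, at 2.86 FPKM against 4.93 to 5.11 FPKM, and for Grin2c, at 10.3 FPKM against 13.7 to 14.3 FPKM. Its Gria3 share of the AMPA subunit sum, 3.88% against 6.55% to 6.66%, stood apart too. In positive thalamus astrocytes mouse 1 stood apart in that share, at 4.55% against 1.90% to 2.24%. These are 4 of 56 groups examined with Dixon's test at its 95% level, and chance flags about 1 in 20 groups.

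The difference between positive and negative astrocytes was not the same in both regions for 2 of the 8 genes by the interaction test, spinal cord minus thalamus: -1.70 on the log2 scale for Gria2 and -1.59 for Gria3 (limma adjusted p = 0.0077 and 0.0388). The Gria2 interaction rests on a difference of 0.34 in the spinal cord and 2.04 in the thalamus, and that of Gria3 on -2.01 and -0.42.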

How the results depend on the processing

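Of 928 alternatives for single genes, 849 kept direction and side of the threshold, 57 lost a call, 7 gained one and 15 changed sign, all 15 in differences that were not called. With the mouse as a replicate block, no call of the 8 genes changed, and 3, 6, 2, 4 and 4 of them were called (thalamus, spinal cord, interaction, regions in positive and in negative astrocytes), with 4107, 3205, 343, 981 and 1541 features. Rescaling by astrocyte markers moved the median log2 difference of all features to -0.41 in the spinal cord, -0.46 in the interaction and -0.40 between regions in positive astrocytes, against 0.09, 0.02 and -0.0014; the share of calls that were higher became 9.21%, 10.9% and 13.3%, against 46.2%, 44.02% and 69.2%, with 4982, 947 and 1811 features called, and 65.9% against 53.7% between regions in negative astrocytes. Under it Gria2 in the spinal cord was at -0.29, above that median, the interaction was -0.20 for Grin3a, -0.10 for Grm3 and -0.35 for Grm5, and Gria1 between regions in negative astrocytes was 0.067. The same rescaling called Gria4 in the spinal cord, the Gria1 interaction and Grin3a between regions in positive astrocytes (-1.14, -1.69 and -1.03). The interaction called 1 of the 8 genes with a pseudocount of 0.1 and without a filter, and 271 features with the filter of 5 FPKM. Fitting only the groups compared called 7 genes and 4227 features between regions in positive astrocytes, and 353 features in negative ones. Leaving out a mouse or a library gave 2249 to 4855 features called in the thalamus, 3 to 6 genes and 1861 to 3006 features in the spinal cord, 0 to 2 genes and 129 to 659 features in the interaction, 368 to 838 features between regions in positive and 976 to 1808 in negative astrocytes. It also gave -0.23 to 0.091 for Grm5 between regions in positive astrocytes, and -0.23 to 0.20 for Gria1 and -0.69 to 0.16 for Grin2c in negative ones. The cause of these shifts was not tested. With 4 against 4 libraries an exact permutation test cannot give a p below 0.0286. Depth is unknown, so it is not known how far it limits the low values.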
